A study of Homo sapiens with 4 samples.

Results

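The regions described here were chosen by their ATAC-seq peaks and carried a peak in every group of the series, whether H1 cells had been given Activin A, Wnt3a, both ligands or neither. Overlapping or book-ended peaks of the 4 deposited peak lists were merged into 87966 regions, and the 13016 regions (14.8%) with at least 1 peak in each list were kept. ATAC-seq marks open chromatin through a transposase that inserts sequencing adapters where the DNA is accessible. H1 is a long-established line of human embryonic stem cells, kept here on Matrigel without feeder cells. There was 1 library per group: cells given Activin A at 25 ng/ml for 6 h, cells given Wnt3a at 25 ng/ml for 6 h, cells given both at 25 ng/ml each for 6 h, and control cells for which no harvest time was given. Per the labels' protocols, the 3 treated groups received a B27 medium with no N2 and no basic fibroblast growth factor listed, whereas the control stayed in the growth medium with N2, B27 and that factor. Ligand and medium therefore cannot be told apart in any comparison with control. With 1 library per group no test between groups was possible, and all differences are between single libraries. Intervals are exact (Clopper-Pearson) 95% intervals and cover counting error only.

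Activin A belongs to the TGF-beta family and signals through SMAD2 and SMAD3, and Wnt3a stabilises beta-catenin. Together they start differentiation of human embryonic stem cells towards mesendoderm, from which mesoderm and endoderm both arise. In most cell types, chromatin that is open irrespective of a signal is known to include promoters of broadly expressed genes and sites of the insulator protein CTCF, whereas enhancers change more between states. Repeated DNA, such as satellite arrays near centromeres and nuclear copies of mitochondrial DNA, can also give strong ATAC-seq peaks in any sample. Coordinates are those of the merged regions on hg19, counted from 1, with their cytogenetic bands. No hg19 gene annotation was used here. Regions are therefore named by position, and the cell type was not checked against marker genes.

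Membership was selected on the presence of peaks, so the values in this paragraph describe the choice and support nothing further. The shared regions held 19.0% of the Activin A peaks (14344 of 75585), 67.4% of the Wnt3a peaks (14204 of 21078), 24.6% of the peaks with both ligands (14355 of 58382) and 54.4% of the control peaks (14263 of 26223). The set was thus a small part of the longer lists and most of the shorter ones. They held a larger portion of the covered bases in each list: 29.4% after Activin A, 72.8% after Wnt3a, 35.6% after both and 61.5% in control. Another 12229 regions had peaks in exactly 3 lists. Of these, 7412 lacked only a Wnt3a peak and 4613 only a control peak, while 148 lacked only a peak with both ligands and 56 only an Activin A peak. The 2 shorter lists therefore set most of the boundary of the set.

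The share of peaks in shared regions went up with the peak score in each list. A region needs a called peak in every list to be a member, so this rise follows in part from the rule and is given as a description only. Each peak has a score from the authors' peak caller, which depends on sequencing depth, so a score in 1 list cannot be read against a score in another. Of the highest-scoring 10% of peaks, 89.1% lay in shared regions after Activin A, 98.8% after Wnt3a, 92.9% with both ligands and 98.1% in control. In the lowest 10%, the portion was 1.97% after Activin A, 46.7% after Wnt3a, 3.51% with both ligands and 28.1% in control. The plot of the portion along the score shows the rise in all 4 lists, steep in the longer lists and gradual in the shorter ones. Every peak at or above a score of 3100, the value at which many scores stop, lay in a shared region: 26 peaks after Activin A, 18 after Wnt3a, 24 with both ligands and 20 in control.

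**Figure D1:**
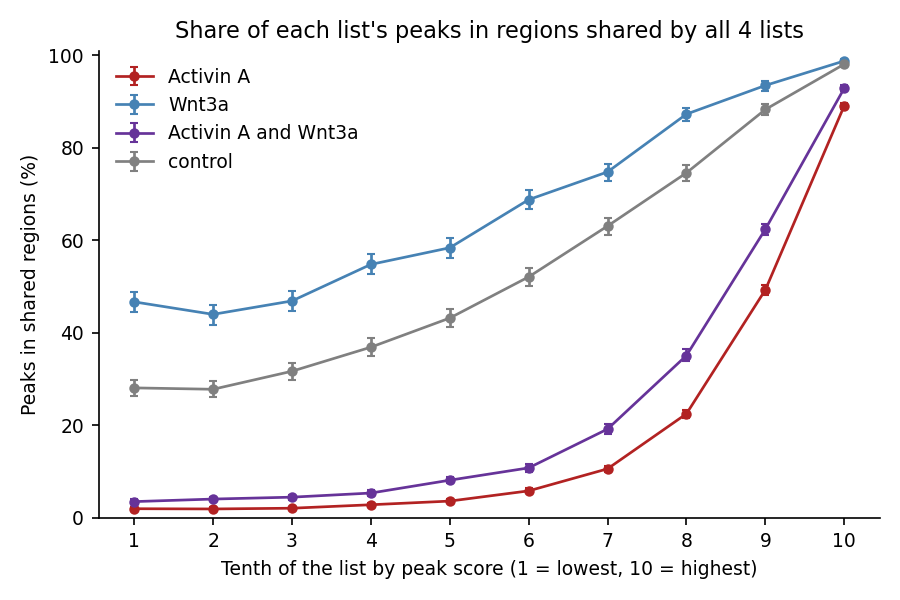
Share of each list's peaks (y axis, percent) that lay in regions shared by all 4 lists, in 10 equal steps of the list's peak scores (x axis, 1 lowest, 10 highest), with exact 95% intervals as bars. In the highest step the share was 89.1% after Activin A, 98.8% after Wnt3a, 92.9% with both ligands and 98.1% in control.

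A peak in all lists did not mean a strong peak in all lists. A region was called strong in a list when its best peak reached the highest 25% of that list's scores. By that call 11217 of the 13016 shared regions (86.2%) were strong after Activin A, against 25.5% of all Activin A regions. After Wnt3a, 4922 (37.8%) were strong, against 26.3% of all Wnt3a regions. With both ligands, 10105 (77.6%) were strong, against 25.8% of all regions of that list. In control, 5831 (44.8%) were strong, against 26.1% of all control regions. These calls use the scores that also decided membership, so nothing is read from the differences. Within the set, 3460 shared regions (26.6%, 25.8 to 27.4) were strong in all 4 lists and 1169 (8.98%, 8.50 to 9.49) in none.

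In 10029 of the 13016 shared regions (77.1%, 76.3 to 77.8) each list had exactly 1 peak. More than 1 peak was found in 9.32% of shared regions after Activin A, 8.32% after Wnt3a, 9.39% with both ligands and 8.85% in control, so splitting of a region into several peaks was about as frequent in every list. A base under a peak of every list existed in 12724 shared regions (97.8%, 97.5 to 98.0). In the other 292 (2.24%) the peaks were joined only through a chain of overlaps, and no base was open in all 4 lists. The median shared region was 1463 bp wide (25th to 75th percentile, 1146 to 1886), and 590 bp of it (470 to 776) lay under peaks of all 4 lists. Over the whole set this common stretch added up to 8.43 Mb of 20.8 Mb.

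Among the 10029 regions with 1 peak per list, the peaks were wider after Activin A and with both ligands than in control, and narrower after Wnt3a. The median width was 1137 bp after Activin A, 694 bp after Wnt3a, 1150 bp with both ligands and 804 bp in control. Paired within a region, the Activin A peak was a median of 1.35 times as wide as the control peak and was the wider of the pair in 85.2% of regions (84.5 to 85.9). For both ligands the ratio was 1.38 and the treated peak was the wider in 87.7% (87.0 to 88.3). For Wnt3a the ratio was 0.889 and the treated peak was the wider in 34.1% (33.2 to 35.1). The order of the widths follows the order of the numbers of peaks per list except between Activin A and both ligands. The depth of the libraries is unknown, and its part in these widths was not tested.

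**Figure D2:**
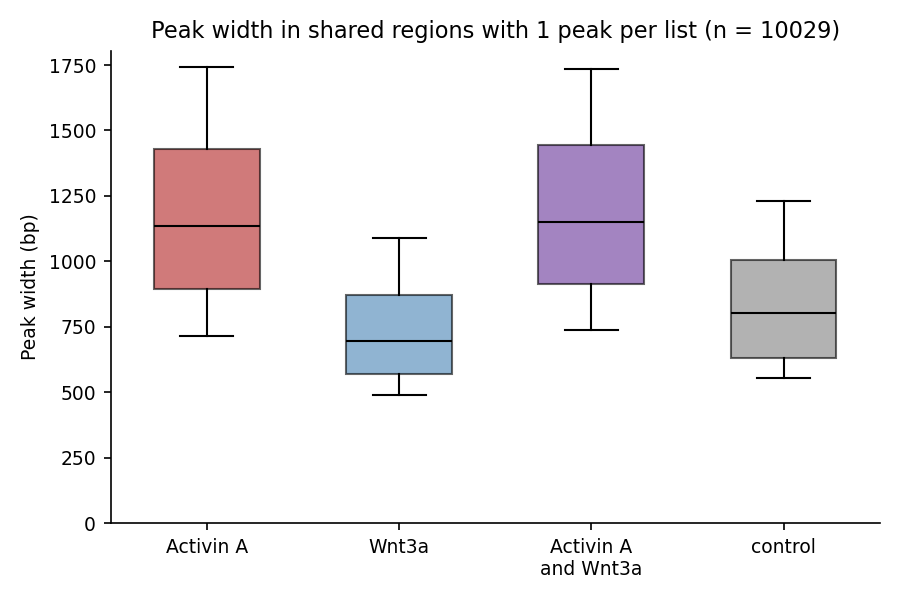
Peak width (y axis, bp) in the 10029 shared regions with exactly 1 peak in each list, for the 4 lists (x axis); boxes give the 25th to 75th percentiles and the median, whiskers the 10th and 90th percentiles. The medians were 1137 bp after Activin A, 694 bp after Wnt3a, 1150 bp with both ligands and 804 bp in control.

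The peaks of a region overlap or are joined through overlaps, so the rule itself limits how far apart their centres can lie. The distances are given as a description only. The median distance between the centres of the treated and the control peak was 102 bp for Activin A, 95 bp for Wnt3a and 98.5 bp for both ligands. Centres lay within 100 bp of each other in 49.5% of the regions for Activin A, 52.3% for Wnt3a and 50.6% for both ligands. The Activin A peak covered the control peak whole in 58.2% of regions and the peak with both ligands did so in 61.9%, but the Wnt3a peak in 12.5%. The reverse, a control peak that covered the treated peak whole, was found in 5.90% for Activin A, 4.30% for both ligands and 34.7% for Wnt3a.

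Shared regions were wider than other regions partly because a region merged from more lists can only grow. Peaks compared within 1 list and within 25% of its scores differed less. In the highest 25% of scores, the median peak in a shared region and in any other region measured 1276 and 1044 bp after Activin A, 935 and 848 bp after Wnt3a, 1342 and 1180 bp with both ligands, and 1048 and 965 bp in control. In the lowest 25% the medians were 565 and 566 bp after Activin A, 553 and 543 bp after Wnt3a, 579 and 572 bp with both ligands, and 576 and 574 bp in control. The extra width of peaks in shared regions was thus seen in the highest 25% and was small in the lowest. Scores still differed within a class. After Activin A, 89.1% of the highest-scoring 10% of peaks lay in shared regions, against 49.3% of the next 10%. Peaks were not matched on score, and a wider peak overlaps others more easily. Nothing is therefore read from the difference between classes.

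To compare lists on a common footing, the 13016 shared regions were ranked by their best score within each list, from percentile 0 (weakest) to 100 (strongest). All 4 rankings then run over the same regions. At the top, 16 regions reached a score of 3100 or more in all 4 lists. The region at 18515356 to 18520490 on chromosome 18, in the centromeric band 18q11.1, had the highest mean rank, with scores of 3112 after Activin A, 3153 after Wnt3a, 3100 with both ligands and 3100 in control. Next came 26188393 to 26190660 on chromosome 20 (20p11.1, also centromeric), with 3100 after Activin A, 3132 after Wnt3a, 3100 with both ligands and 3100 in control. Both stood at the ceiling of the score in every list, so no difference between the groups can be seen there.

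The remaining 14 regions of this kind were tied at 3100 in all lists, and by the order of names the next were in 1p36.33, 1p11.2 and 11p15.4. The 1p36.33 region, at 564293 to 570475 on chromosome 1, was 6183 bp wide, and 6172 bp of it lay under the peaks of all 4 lists. In 1p11.2 the region ran from 121483679 to 121485577 on chromosome 1, and in 11p15.4 from 10529318 to 10532243 on chromosome 11. Bands 5q14.1, 5q15, 5q21.1 and 5q31.1 each held 1 more such region, and 17p11.2 held 2. Of the 16 regions, 5 lay in centromeric, variable or stalk bands of the chromosome map. Whether any of them is a nuclear copy of mitochondrial DNA or another repeat was not tested.

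Below the ceiling and outside the repeat-rich bands, the highest mean ranks belonged to narrow regions in 1p31.1, 7q34 and 12q12 and wider ones in 19q13.2 and 19q13.42, all chosen after their values were seen. The 1p31.1 region, at 77436478 to 77437421 on chromosome 1, was 944 bp wide and scored 2236 after Activin A, 1739 after Wnt3a, 2030 with both ligands and 1475 in control. At 42771877 to 42773848 on chromosome 19 (19q13.2), 1972 bp wide, the scores were 2644 after Activin A, 757 after Wnt3a, 1675 with both ligands and 808 in control. Both of these regions ranked at or above percentile 99.6 in all 4 lists, although their scores differed between lists.

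The order of the shared regions by score was similar but not equal between lists. Across the 13016 regions, Spearman's rho was highest between Activin A and both ligands, at 0.81 (Pearson's r of the log10 score 0.80). For pairs with control, rho was 0.66 for Activin A, 0.54 for Wnt3a and 0.67 for both ligands (r 0.67, 0.64 and 0.69 for those 3 pairs). Between Wnt3a and the other treated lists it was 0.63 with Activin A and 0.62 with both ligands (r 0.65 for each). These are descriptions over regions, not over samples. Regions of 1 list share their library and depth, and the 2 shorter lists have the narrower range of scores.

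Of the 1302 regions in the highest 10% of any 1 list's ranking, 513 were in the highest 10% of all 4, whereas 2395 were in the highest 10% of at least 1. Over all shared regions the distance between a region's highest and lowest rank had a median of 31.6 percentile points. With the regions cut into 5 equal classes by mean rank, it was 14.7 points in the highest class, 43.4 points in the middle one and 25.9 points in the lowest. A mean rank near either end leaves less room for such a distance, so the contrast between classes is in large part fixed by how they were cut. The distance was under 10 points in 1180 regions (9.07%, 8.58 to 9.57) and over 50 points in 2356 (18.1%, 17.4 to 18.8). In control, the 25th, 50th and 75th percentiles of the scores were 72.8, 106 and 160, so that many ranks lie within a small range of scores.

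Shifts of 25 percentile points or more against control were counted in each direction. After Activin A, 1792 shared regions (13.8%) ranked higher and 1765 (13.6%) lower, against 13.8% and 13.6% of all regions with a peak in both the Activin A and control lists, ranked among themselves. After Wnt3a, 2217 (17.0%) ranked higher and 2261 (17.4%) lower, against 16.9% and 17.1% of all regions with a peak in both lists. With both ligands, 1772 (13.6%) ranked higher and 1781 (13.7%) lower, against 14.1% and 13.8%. Ranks over a fixed set have a fixed mean, so the balance of higher and lower calls in these counts is no result. When the shared regions were instead ranked within all regions that have a peak in both lists, the calls were uneven. In that ranking, 2100 (16.1%) ranked higher and 1216 (9.34%) lower after Activin A, and 2067 (15.9%) higher and 1304 (10%) lower with both ligands. After Wnt3a they were 2208 (17.0%) and 2255 (17.3%), with nearly all regions of the pair belonging to the set. Membership also required a peak in the remaining lists, so nothing is read from the uneven calls. The 3 comparisons use the same control library.

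**Figure D3:**
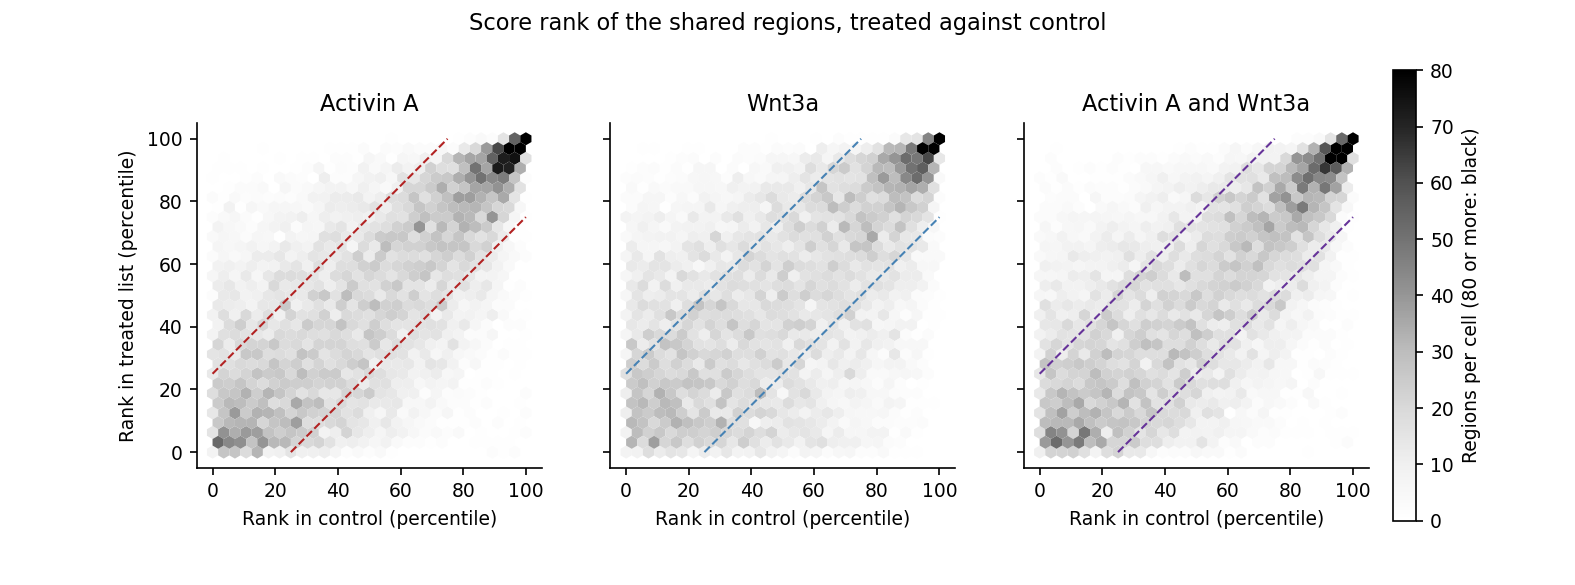
Score rank of the 13016 shared regions in each treated list (y axis, percentile) against control (x axis, percentile); darker cells hold more regions, and dashed lines mark shifts of 25 points. Regions gather at the upper right, and 1792 lie above the upper line after Activin A, 2217 after Wnt3a and 1772 with both ligands.

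The shared regions that ranked furthest above control, averaged over the 3 treated lists, were barely past the peak caller's threshold in control. The region at 220251673 to 220253879 on chromosome 2 (2q35) scored 1039 after Activin A, 358 after Wnt3a, 642 with both ligands and 52.6 in control. Its rank was at percentile 92.0 after Activin A, 97.9 after Wnt3a, 90.1 with both ligands and 4.14 in control. These regions were picked on this shift, so low ranks in control and high ranks in the treated lists follow from the choice. The peak in 2q35 covered 2206 bp after Activin A, 1871 bp after Wnt3a, 2151 bp with both ligands and 565 bp in control. The width thus differed in the same direction as the rank, but both come from the same reads.

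A second such region, at 79196187 to 79197821 on chromosome 17 (17q25.3), scored 882 after Activin A, 197 after Wnt3a, 571 with both ligands and 50.9 in control. It stood at percentile 86.9 after Activin A, 86.6 after Wnt3a, 86.0 with both ligands and 0.707 in control. The 3 treated ranks were nearly equal. At 38977705 to 38979426 on chromosome 2 (2p22.1), the rank was at percentile 78.7 after Activin A, 90.9 after Wnt3a, 94.4 with both ligands and 4.36 in control. The remaining 2, at 89704573 to 89706377 on chromosome 5 (5q14.3) and 20922526 to 20924154 on chromosome 14 (14q11.2), scored 54.1 and 51.2 in control. Their ranks in the treated lists ran from 70.8 to 95.4. None of the 5 lay in a centromeric or variable band.

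Of the 5 shared regions that ranked furthest below control, 4 lay in centromeric or variable heterochromatin bands. Such bands held 102 of the 13016 shared regions (0.784%). Their median rank in control was 74.0, so they had more room to fall, and nothing is read from the count. The region at 46390644 to 46392342 on chromosome 16 (16q11.2) scored 71.0 after Activin A, 89.1 after Wnt3a, 88.2 with both ligands and 379 in control. Its rank was at percentile 0.634 after Activin A, 37.3 after Wnt3a, 4.36 with both ligands and 97.9 in control. It was picked on this shift, so its high rank in control follows from the choice. Among the treated lists, that of Wnt3a ranked it highest. In the same band, the region at 46426987 to 46429329 ranked at percentile 5.18 after Activin A, 49.0 after Wnt3a, 2.50 with both ligands and 98.9 in control, and held no base under peaks of all 4 lists. The others were at 92323838 to 92325613 on chromosome 2 (2p11.1), 22256972 to 22257845 on chromosome 17 (17p11.1) and 66832913 to 66833709 on chromosome 9 (9q13). The last of these is in a G-negative band, with a rank at percentile 3.51 after Activin A, 33.4 after Wnt3a, 5.60 with both ligands and 93.3 in control.

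**Figure D4:**
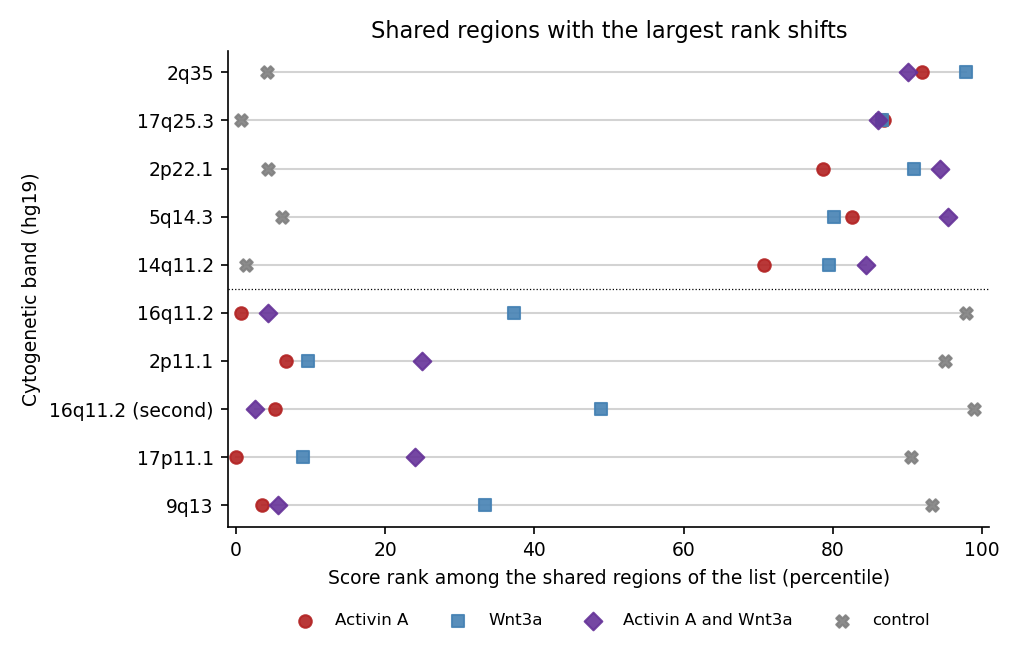
Score rank (x axis, percentile among the shared regions of a list) of the 5 shared regions that ranked furthest above control (upper rows) and the 5 furthest below it (lower rows), by hg19 band (y axis); symbols mark the 4 lists. The regions were picked on this shift, so the place of control follows from the choice: at or below 6.22 in the upper rows and at or above 90.5 in the lower rows.

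Shared regions of the centromeric and variable bands, as a pooled class, ranked lower by 25 points or more after Activin A and with both ligands more often than the rest. There were 102 of them, or 18.8% (15.6 to 22.3) of the 544 merged regions in those bands. A lower rank by 25 points or more was found after Activin A in 32.4% (23.4 to 42.3) of the 102 regions and in 13.4% (12.8 to 14.0) of shared regions elsewhere. After both ligands the portions were 31.4% (22.5 to 41.3) and 13.5% (13.0 to 14.1), and after Wnt3a 24.5% (16.5 to 34.0) and 17.3% (16.7 to 18.0), with intervals that overlap for Wnt3a. The median rank of the 102 was at percentile 43.5 after Activin A, 63.3 after Wnt3a, 44.2 with both ligands and 74.0 in control. Within a region the typical shift was much smaller, with a median of -6.91 points for Activin A, -0.265 for Wnt3a and -2.47 for both ligands. The 62 centromeric regions had median shifts of -13.5 points for Activin A, -0.265 for Wnt3a and -10.5 for both ligands, while those of the 40 regions in variable heterochromatin were -0.161, -0.582 and 0.668 points for the same 3 treatments. A higher rank by 25 points or more was found in 4.90% of the 102 after Activin A, 8.82% after Wnt3a and 7.84% with both ligands. In control, the median rank of shared regions elsewhere was 49.9, so the 102 started higher. They had more room to fall and less to rise. The classes were not matched on control rank, so nothing is read from these shares. Centromeric and variable bands were singled out after the named regions were seen. Neighbouring repeats are not independent of each other, and reads from repeats can be placed in more than one copy. The 3 treated libraries are set against the same single control library, and the part of that library in the difference was not tested.

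Some shared regions shifted far in 1 or 2 of the treated lists and less in the rest. Each was picked on its shift between 1 treated list and control, so those ranks follow from the choice. The region furthest above control after Activin A was at 149106192 to 149109069 on the X chromosome (Xq28). It scored 948 after Activin A, 64.9 after Wnt3a, 233 with both ligands and 51.2 in control, and ranked at percentile 89.6 after Activin A, 11.3 after Wnt3a, 36.1 with both ligands and 1.29 in control. Only the Activin A library placed it high. At 18513846 to 18515243 on chromosome 18 (18q11.1), the rank was at percentile 1.86 after Activin A, 85.3 after Wnt3a, 6.66 with both ligands and 96.7 in control, so the Wnt3a and control libraries stood together. The region at 142535432 to 142539343 on chromosome 1 (1q12, a variable heterochromatin band) ranked at percentile 53.0 after Activin A, 87.0 after Wnt3a, 2.32 with both ligands and 99.6 in control. It was the furthest below control with both ligands, and the regions in 2p22.1 and 5q14.3 described above were the furthest above.

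For Wnt3a, the region at 104032682 to 104033879 on chromosome 8 (8q22.3) followed the one in 2q35 as furthest above control, with a rank at percentile 55.4 after Activin A, 91.7 after Wnt3a, 50.7 with both ligands and 0.976 in control. Furthest below control after Wnt3a was the region at 52343553 to 52345182 on chromosome 1 (1p32.3). It scored 683 after Activin A, 58.6 after Wnt3a, 441 with both ligands and 246 in control, and ranked at percentile 75.9 after Activin A, 1.10 after Wnt3a, 74.3 with both ligands and 91.6 in control. The region at 24681961 to 24683271 on chromosome 14 (14q12) followed, at percentile 74.6 after Activin A, 0.496 after Wnt3a, 73.7 with both ligands and 89.1 in control. Both were picked on the fall from control to Wnt3a, so these ranks follow from the choice. The Activin A list and the list with both ligands, not used in it, ranked both at or above percentile 73.7.

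Width went with rank shift in the regions with 1 peak per list. Among those that ranked higher by 25 points or more, the median peak measured 1265 bp after Activin A against 637 bp in control, 781 bp after Wnt3a against 642 bp in control, and 1316 bp with both ligands against 634 bp in control. Among those that ranked lower, it measured 995 bp after Activin A against 887 bp in control, 593 bp after Wnt3a against 933 bp in control, and 975 bp with both ligands against 857 bp in control. Even regions that ranked lower were thus wider than in control after Activin A and with both ligands. Score and width come from the same reads and are not independent measures.

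Of the 3 widest shared regions, the one in 19q11 lay in a centromeric band and the others in bands not marked as centromeric or variable. A band's stain does not tell whether a region is repeated DNA, and that was not tested. The widest of all spanned 14940 bp at 42382434 to 42397373 on chromosome 10 (10q11.21), with 6 peaks after Activin A, 4 after Wnt3a, 6 with both ligands and 4 in control, and 11142 bp under peaks of all 4 lists. It was followed by 133024618 to 133035225 on chromosome 2 (2q21.2, 10608 bp) and 27731658 to 27740478 on chromosome 19 (19q11, 8821 bp). All 3 ranked at or above percentile 98.6 in every list. By number of peaks, the region in 10q11.21 was also first. After it came 40825474 to 40832510 on chromosome 17 (17q21.2), with 5 peaks after Activin A, 4 after Wnt3a, 5 with both ligands and 4 in control, and 92315676 to 92323759 on chromosome 2 (2p11.1), with 5 peaks after Activin A, 6 after Wnt3a, 3 with both ligands and 3 in control. Of the 17q21.2 region 2231 bp of 7037 bp lay under peaks of all 4 lists. In all, 26 shared regions were wider than 5 kb, 4 of them in centromeric or variable bands, against 1 of the 74950 other regions.

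By position, which the rule did not use, shared regions per Mb were densest on chromosome 19 and sparsest on the sex chromosomes. There were 4.20 shared regions per Mb over the genome, 14.5 on chromosome 19, 8.73 on chromosome 17, 0.953 on the X chromosome and 0.236 on the Y chromosome. No value by chromosome, here or below, was adjusted for the number of copies of a chromosome per cell. The part of copy number was not tested. Chromosome 19 held 6.58% (6.16 to 7.02) of the shared regions and 3.83% (3.69 to 3.96) of the others. The X chromosome held 1.14% (0.962 to 1.33) of the shared regions and 1.80% (1.71 to 1.90) of the others. Put the other way, 23.0% (21.6 to 24.4) of the merged regions on chromosome 19 were shared by all lists and 9.89% (8.42 to 11.5) on the X chromosome, against 14.8% over all chromosomes. The Y chromosome had few merged regions of any kind. Of its 84, 14 were shared (16.7%, 9.42 to 26.4), so its portion was not low.

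Among strong regions the difference for chromosome 19 was smaller, and that for the X chromosome was seen in the longer lists. Of the 18613 regions in the highest 25% of the Activin A list, 60.3% (59.6 to 61.0) were shared by all lists. The portion was 63.2% (60.4 to 65.9) on chromosome 19 and 48.2% (41.9 to 54.6) on the X chromosome. In the highest 25% of the list with both ligands it was 74.1% (71.2 to 76.9) on chromosome 19, 55.6% (48.0 to 62.9) on the X chromosome and 70.0% (69.2 to 70.7) over all chromosomes. In the highest 25% of the shorter lists, the portion on chromosome 19 was 95.2% (92.7 to 97.1) for Wnt3a and 93.7% (91.1 to 95.7) for control, against 94.7% (94.0 to 95.3) and 90.2% (89.4 to 90.9) over all chromosomes. The X chromosome had few strong regions there and wide intervals, at 88.0% (75.7 to 95.5) against 94.7% for Wnt3a and 95.6% (84.9 to 99.5) against 90.2% for control.

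In the longer lists, a smaller portion of strong regions had a control peak or a Wnt3a peak on the X chromosome than on autosomes. Regions of a library are not replicates, so the intervals cannot decide which of these differences would hold in further libraries. A control peak was present in 64.1% (57.9 to 70.1) of the 251 strong Activin A regions on the X chromosome and in 78.0% (77.4 to 78.6) of those on autosomes. A Wnt3a peak was present in 64.9% (58.7 to 70.8) on the X chromosome and 70.6% (69.9 to 71.2) on autosomes, with overlapping intervals. Of the strong regions of the list with both ligands, a Wnt3a peak was present in 68.3% (61.0 to 75.1) on the X chromosome and 78.3% (77.6 to 79.0) on autosomes. A control peak was present in 68.9% (61.6 to 75.6) of them on the X chromosome and 84.9% (84.3 to 85.5) on autosomes. For the strong Activin A regions, a peak with both ligands was present in 98.0% (95.4 to 99.4) on the X chromosome and 98.7% (98.5 to 98.8) on autosomes. Once shared, X-linked regions ranked higher by 25 points or more at shares whose intervals held those of the whole set: 14.9% (interval 9.56 to 21.6) of the 148 X-linked shared regions ranked higher after Activin A, and the portion was 18.9% (13.0 to 26.2) for Wnt3a and 13.5% (8.45 to 20.1) for both ligands. A lower rank by as much was found in 14.9% (9.56 to 21.6) for Activin A, 15.5% (10.1 to 22.4) for Wnt3a and 20.3% (14.1 to 27.7) for both ligands. For both ligands the portion in the whole set was 13.7%. X-linked regions were not matched to the others on control rank, and regions of a library are not replicates. Nothing is therefore read from these shifts.

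**Figure D5:**
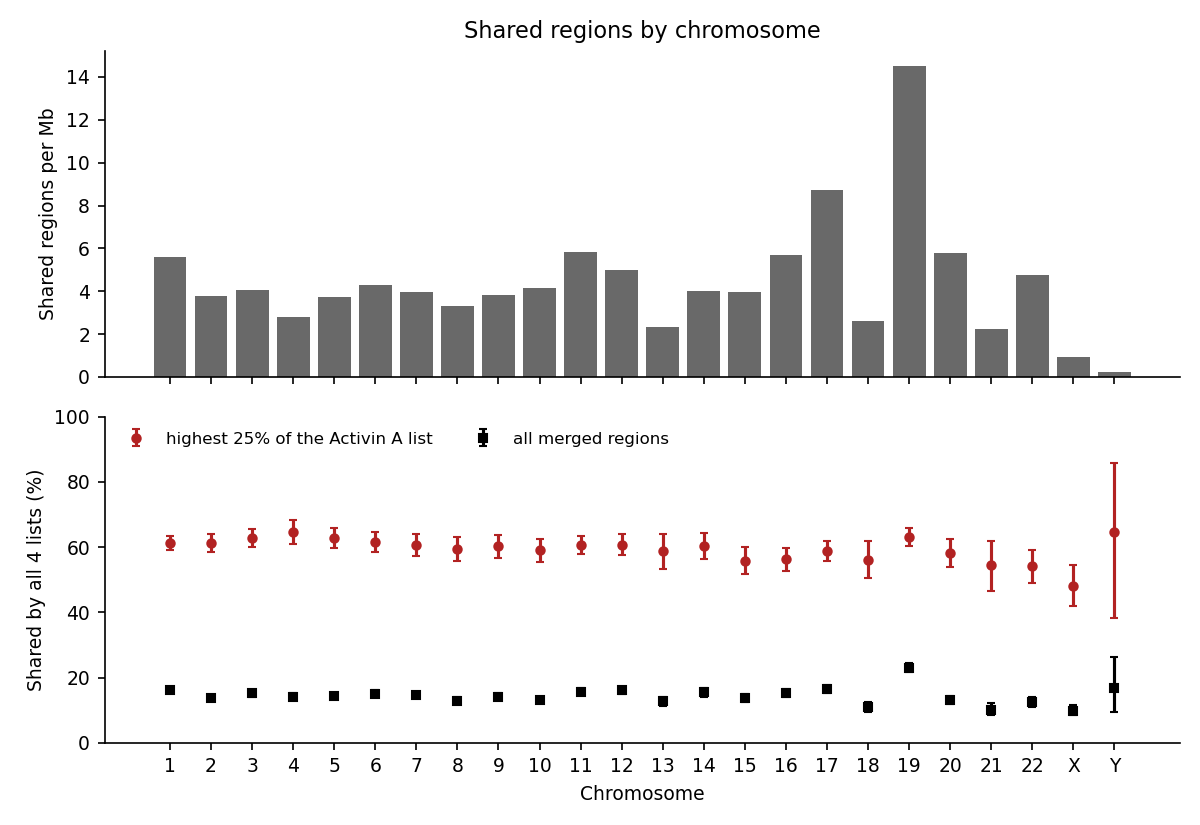
Upper panel, shared regions per Mb (y axis) by chromosome (x axis). Lower panel, percent of regions shared by all 4 lists (y axis) among the highest 25% of the Activin A list (circles) and among all merged regions (squares), with exact 95% intervals; chromosome 19 stands at 23.0% of all regions but 63.2% of strong ones, and the X chromosome at 9.89% and 48.2%.

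Along the chromosomes, shared regions per Mb were denser in pale bands than in dark ones, and so were merged regions of any kind. Light G-bands are known to be rich in genes and dark ones poor. Shared regions numbered 5.89 per Mb in G-negative bands, 7.65 in the palest G-positive bands and 1.65 in the darkest ones. As a portion of all merged regions they made up 15.1% (14.8 to 15.4) in G-negative and 12.1% (11.3 to 12.9) in the darkest bands. In the palest G-positive bands it was 17.3% (16.5 to 18.0). This portion differed far less between bands than the number per Mb. Among strong Activin A regions the order was the other way, with 59.0% (58.1 to 59.9) in G-negative and 62.7% (59.7 to 65.5) in the darkest bands, with intervals that just overlap. The lower portion in dark bands was therefore not seen at high scores.

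Of the 692 bands with at least 30 merged regions, 19q13.43, known for its zinc finger genes, had the highest portion of shared regions, 54 of 129 (41.9%, 33.2 to 50.9). It was followed by 19p13.12 with 34 of 105 (32.4%, 23.6 to 42.2) and 1q21.1 with 25 of 78 (32.1%, 21.9 to 43.6). Among the strong Activin A regions of 19q13.43, 51 of 69 (73.9%) were shared, against 60.3% of all strong Activin A regions. The portion was much the same in 19p13.12 (73.2%) and 1q21.1 (76.9%), so 19q13.43 did not stand out among strong regions. At the other end, Xp22.13 had none of 31 (upper limit 11.2%) and 15q12 had 1 of 72 (1.39%, 0.0352 to 7.50), where none of 13 strong Activin A regions was shared. These bands were ranked on the values themselves.

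Crowding around shared regions was like that around regions found in 3 lists. Another shared region lay within 10 kb of 2794 of them (21.5%, 20.8 to 22.2). A shared region lay within 10 kb of 21.4% (20.7 to 22.1) of the regions found in exactly 3 lists and of 18.2% (17.9 to 18.4) of all 74950 regions outside the set. The median distance to the nearest other shared region was 38056 bp. Of the 3113 windows of 1 Mb, 723 (23.2%) held no shared region, and 67 held 20 or more, which together contained 13.1% of the set. The windows cover whole chromosomes, whether or not any list had a peak there. The fullest windows, with 41 shared regions each, were 65000001 to 66000000 on chromosome 11 and 7000001 to 8000000 on chromosome 17. They held 125 and 113 merged regions, so peaks of any kind were also crowded there.

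At the edge of the rule, a shared region can rest on 1 weak peak. The lowest of the 4 best scores, on each list's own scale, was under 60 in 2072 shared regions (15.9%, 15.3 to 16.6). The lowest belonged to 76882656 to 76883625 on chromosome 11 (11q13.5), with 245 after Activin A, 65.7 after Wnt3a, 112 with both ligands and 50.0 in control. At 124312635 to 124313686 on chromosome 9 (9q33.2) the scores were 275 after Activin A, 64.3 after Wnt3a, 170 with both ligands and 50.1 in control. At 229326502 to 229327332 on chromosome 1 (1q42.13) they were 85.6 after Activin A, 127 after Wnt3a, 50.1 with both ligands and 71.6 in control, so here the lowest value was that of the list with both ligands.

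Just outside, the regions in 3 lists were ordered by their highest score in any list. That order follows the Activin A scale, which reached 1044 outside the set, against 357 for Wnt3a, 726 for both ligands and 293 for control. The first 3 all lacked a Wnt3a peak and were at 129024229 to 129025282 on chromosome 3 (3q21.3), 75946709 to 75948577 on chromosome 7 (7q11.23) and 28994849 to 28998777 on chromosome 7 (7p14.3). The first scored 1044 after Activin A, 392 with both ligands and 105 in control, and its nearest Wnt3a peak was 8161 bp away. A peak of the missing list lay within 100 bp of 43 of the 12229 regions in 3 lists (0.352%) and within 1 kb of 712 (5.82%), so the overlap rule decided few of them.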

How the data were processed

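Chromatin accessibility was measured by ATAC-seq in 4 libraries of H1 cells, 1 per group, with groups taken from the labels. Each deposited list gives, in 5 columns, the position of a peak, its MACS-style name and a score. The authors' score per peak was used as deposited. By its range of values it may be a scaled logarithm of a p-value, and it was used for ranks within lists, except that the regions nearest the threshold were picked on the lowest or highest raw score over the lists. The submitters' processing notes name CASAVA 1.8, Bowtie2 2.2.2 and build hg19. For peak-calling settings, duplicate removal, read shifting and read numbers the entry is: not given in the sources used here. Depth is therefore unknown. Each would change which weak peaks were listed.

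Overlapping or book-ended peaks were merged. Bands came from circlize 0.4.16 (R 4.3.3). Python 3.11.15, numpy 2.4.6, pandas 2.3.3, scipy 1.17.1 and matplotlib 3.10.9 were used. Merging and ranking were tested on simulated lists. Regions were named by rule: the 5 with the highest mean rank, the 5 furthest above and below control over the 3 treated lists, 2 each way per treatment, the 3 widest, the 3 with the most peaks, and 3 on either side of the threshold. Members and lists were chosen with earlier results of these data known. The planned gene lists, marker genes and gene starts were not run, because no hg19 annotation was used here. Alternatives covered overlap, peak width, score threshold, list length, rank measure, chromosomes and bands.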

Additional observations from a re-analysis of the deposited data

How the results depend on the processing

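Counts were taken as moved when they changed by more than 1.5 times, and shares, medians and correlations when they left the 95% interval of the reported value; 75 of 142 values under an alternative stayed and 67 moved. All 21 values on autosomes and all 22 without centromeric, heterochromatic and stalk bands stayed. These alternatives kept 12854 and 12914 of the 13016 shared regions, so little could move. A band's stain does not mark every repeat, and the part of repeated DNA was not tested. With lists given in the order Activin A, Wnt3a, both, control, the share of a list's peaks in shared regions was 16.9%, 61.7%, 21.8% and 49.3% with 500 bases around each centre. It was 49.9%, 53.6%, 49.9% and 52.4% at equal list length (21078 peaks each). A shared region adds about 1 peak to every list, so near-equal shares follow there from the construction and nothing is read from them. The share was 19.6%, 69.1%, 25.0% and 55.7% for the highest-scoring 50%, 21.7%, 69.3%, 27.4% and 56.5% with peaks within 500 bases merged, and 10.8%, 38.9%, 14.0% and 31.2% with a reciprocal overlap of 50%. The highest-scoring 50% left 7002 shared regions, since fewer peaks could enter, and the reciprocal overlap, a tighter criterion on the same peaks, 8189. In the order 500 bases around each centre, equal length, highest 50% and 500-base merging, 92.2%, 84.8%, 88.2% and 66.4% had 1 peak per list, the median width was 728, 1525, 1573 and 1575 bp (1265 bp with the reciprocal overlap), and 19.9%, 18.1%, 13.1% and 19.8% had another within 10 kb (14.1% with the reciprocal overlap). Chromosome 19 held 7.10% at equal length and 7.26% in the highest 50%, and the X chromosome 0.814% in the highest 50%. The cause of these was not tested beyond the construction of each alternative. At equal length the lowest and highest rho were 0.52 and 0.77, and with summed scores the highest was 0.84. With a shift of 40 points, fewer by construction, 728, 1006 and 732 ranked higher and 611, 1044 and 582 lower after Activin A, Wnt3a and both. Alternatives for gene starts were not run. Depth is unknown for all 4 libraries, and a weak peak in any 1 list decides membership. No paired analysis was possible because there was 1 library per group.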
